A study of Mus musculus with 4 samples.

Results

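The Ifit family of the mouse, interferon-induced proteins with tetratricopeptide repeats, was followed through polysome RNA of ADSCs. Its members were taken by symbol from the deposited table of 18200 genes, and all 6 were found: Ifit1, Ifit2, Ifit3, Ifit3b, Ifit1bl1 and Ifit1bl2. Polysome RNA is messenger RNA that carries several ribosomes, and it was sequenced in 4 libraries of Mus musculus ADSCs with the genotype WT. The control group of 2 libraries was treated with a scrambled construct. The other group of 2 libraries is labelled IFIT1 knockdown and is called sh-Ifit1 in the design text, which makes it a short hairpin RNA directed at Ifit1. Values under the scrambled label and under the knockdown label are those of the libraries so labelled, in the order of replicates 1 and 2. Replicate 1 of each group came from batch 1 and replicate 2 from batch 2. The labels do not give the sequence of the hairpin, the strain or sex of the animals, or whether the cells were a clone or a pool. Whether replicates were separate cultures is not given either, so the spread that p-values rest on, that between 2 libraries, may be technical. For Ifit1, Ifit2 and Ifit3 the standard error (SE) from it was smaller than the counting of sequenced fragments alone gives.

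Ifit proteins are cytoplasmic RNA-binding proteins that are made in quantity after type I interferon, virus or double-stranded RNA. Interferon binds its receptor, the kinases Jak1 and Tyk2 are activated, and a complex that holds Stat2 and Irf9 enters the nucleus and binds interferon-stimulated response elements in promoters. Ifit1 binds messenger RNA whose cap lacks ribose methylation and keeps the cap-binding factors of the host off it, and mouse Ifit1 and Ifit2 also bind a subunit of the initiation factor eIF3. Ifit2 is known for promoting cell death, and human IFIT3 stabilises the binding of IFIT1 to RNA. Ifit3b is a close copy of Ifit3, and Ifit1bl1 and Ifit1bl2 are relatives of Ifit1.

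The 6 genes lie together on chromosome 19 over 112.4 kb (chr19:34550550-34662981 in the RefSeq annotation of GRCm38.p6), in the order Ifit2, Ifit3, Ifit1bl1, Ifit3b, Ifit1bl2 and Ifit1 by lower coordinate. Promoter windows of 250 bases before to 50 after a start site, as the RefSeq promoter table places those sites, were searched for the core of the response element, GAAA, any 2 bases and GAAA, on both strands. It was found in 6 of the 9 windows of the family, which belong to 5 of the 6 genes, against 3.44% of the 32851 windows of all genes. No 2 matches overlapped. The gene extents that give the span of the cluster reach beyond these start sites for 5 of the 6 genes, all but Ifit1. The windows of those 5 genes therefore lie partly or wholly inside the extent of the gene, and the bases before its outer end were searched in part for Ifit2 and Ifit1bl2 and not at all for Ifit3, Ifit3b and Ifit1bl1. Ifit1 and a start site of Ifit1bl2, the base before 34640744, face away from each other on opposite strands, and the bases between these 2 sites hold 2 matches that both windows share. Both matches lie inside the extent of Ifit1bl2, which ends at 34640827. These bases and those before start sites of Ifit3 and Ifit2 are shown because the 3 genes had the largest levels of the family and differed in how far they rose. Capitals mark the matches, which read TTTC, any 2 bases and TTTC on the strand shown.
Ifit1, 145 bases before the start, chr19:34640744-34640888, plus strand: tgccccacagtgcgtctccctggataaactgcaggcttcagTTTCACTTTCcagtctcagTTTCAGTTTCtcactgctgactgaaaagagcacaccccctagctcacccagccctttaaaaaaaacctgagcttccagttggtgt
Ifit3, 250 bases before the start site used, chr19:34583279-34583528, plus strand: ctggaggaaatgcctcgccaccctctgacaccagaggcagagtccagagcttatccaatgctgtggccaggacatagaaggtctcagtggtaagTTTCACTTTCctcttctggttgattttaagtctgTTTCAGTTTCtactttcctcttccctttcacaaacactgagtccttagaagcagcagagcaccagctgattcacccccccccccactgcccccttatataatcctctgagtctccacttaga
Ifit2, 250 bases before 1 of the 2 start sites used, partly inside the gene extent, chr19:34550444-34550693, plus strand: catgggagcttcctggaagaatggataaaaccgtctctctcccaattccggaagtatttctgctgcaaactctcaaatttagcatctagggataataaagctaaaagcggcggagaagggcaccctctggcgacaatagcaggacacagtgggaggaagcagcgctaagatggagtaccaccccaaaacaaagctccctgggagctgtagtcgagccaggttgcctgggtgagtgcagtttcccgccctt

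The matches of the family can be compared in their surroundings of 10 bases on either side. The lines give, in order, the matches 104 and 85 bases before the start of Ifit1, those 156 and 122 bases before that of Ifit3, and those 104 and 23 bases before 2 separate start sites of Ifit1bl1.
Ifit1, chr19:34640785-34640794: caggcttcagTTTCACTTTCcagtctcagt
Ifit1, chr19:34640804-34640813: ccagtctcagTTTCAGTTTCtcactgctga
Ifit3, chr19:34583373-34583382: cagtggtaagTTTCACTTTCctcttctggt
Ifit3, chr19:34583407-34583416: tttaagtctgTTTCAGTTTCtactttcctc
Ifit1bl1, chr19:34602063-34602072, minus strand: actctgtaggTTTCATTTTCtgtaggttgg
Ifit1bl1, chr19:34599441-34599450, minus strand: actctgtaggTTTCATTTTCtgtaagttgg
The runs TTTCACTTTC and TTTCAGTTTC were each present before Ifit1 and before Ifit3, and the surroundings of both Ifit3b matches have the same letters as those of Ifit3. A pair of matches within 1 window was found in 0.23% of all windows. Neither of the 2 Ifit2 windows held a match, which says only that these letters are not within them. The TATA box in its strict form, TATAAA on the strand of the gene, was found in windows of Ifit1bl1 and Ifit1bl2 and in 8.32% of all windows.

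The values are FPKM, fragments scaled to gene length and to library depth, as the authors computed them. The FPKM of a gene step in units of 1 fragment, so fragments could be recovered for 15872 genes, and they summed to 24448952 to 29825482 a library. A gene was tested, with limma on log2(FPKM + 1), where its mean FPKM was 1 or more, and a call is a Benjamini-Hochberg adjusted p under 0.05 over these 8750 genes. By that rule 68.7% of the tested genes were called, 27.4% as higher and 41.2% as lower under the knockdown label, so a call alone is common in these data. The filter takes the mean over all 4 libraries, so a gene low under either label can pass through the other. Genes that passed only through the knockdown label include Ifit3, Irf7, Dhx58, Usp18 and Rtp4. They also include the stromal marker Eng, and Krt8, Krt18, Psmb9, Bmyc and Cnrip1. Such genes are in the counts of higher genes. Of the cell markers, 6 of 10 mesenchymal stromal genes were tested and all 6 were higher. Among them Thy1 rose from 3.71 and 3.68 to 31.0 and 30.3 FPKM. The stromal genes under the filter did not share a direction. The ratio of means was 20.3 for Pdgfra, 1.03 for Pdgfrb, 0.716 for Alcam and 0.473 for Nt5e, which was at 0 to 0.0347 FPKM. The summed FPKM of the stromal list was 41.1 to 41.7 under the scrambled label and 96.0 to 97.1 under the knockdown label. The part of this difference in the Ifit results was not tested. Of 10 leukocyte markers 4 had an entry, and these summed to 0.419 to 0.615 FPKM under the scrambled label. Under the knockdown label they summed to 0.496 to 0.546. The 3 endothelial genes with an entry, of 5, reached 0.0114 FPKM at most, and Epcam 0.0124. Of the 3 adipocyte genes with an entry, of 6, Pparg and Fabp4 were lower and Plin1 was at 0 in 3 libraries. Krt8 and Krt18 were higher and Krt19 lower among 5 epithelial genes. The 4 Y-linked genes Ddx3y, Eif2s3y, Kdm5d and Uty were added with their values already known. They had 3 and 1 fragments in sum under the scrambled label and 252 and 307 under the knockdown label, and whether both groups came from the same animals is not given. A difference between treatments and one between the cells of the groups therefore cannot be told apart, for the Ifit genes or any other.

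The libraries also differed in a way that the labels do not describe. For every tested gene the 4 values were split into a group difference, a batch difference and a crossed difference, the last being scrambled 1 and knockdown 2 against scrambled 2 and knockdown 1. This split was chosen after the data were seen. A crossed difference over 0.2 on the log2 scale was found in 1711 genes, 19.6%, a batch difference of that size in 10 and a group difference in 5908, 67.5%. Of the 1711 genes, 209 (12.2%) also had a group difference over 0.2. In the other 1502 the median size of the group difference was 0.021. The housekeeping gene Gapdh was one of these, at 275 and 163 FPKM under the scrambled label and 161 and 268 under the knockdown label. The Ifit genes were among the genes with little crossed difference, 0.051 for Ifit1, 0.016 for Ifit2 and 0.009 for Ifit3.

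**Figure D1:**
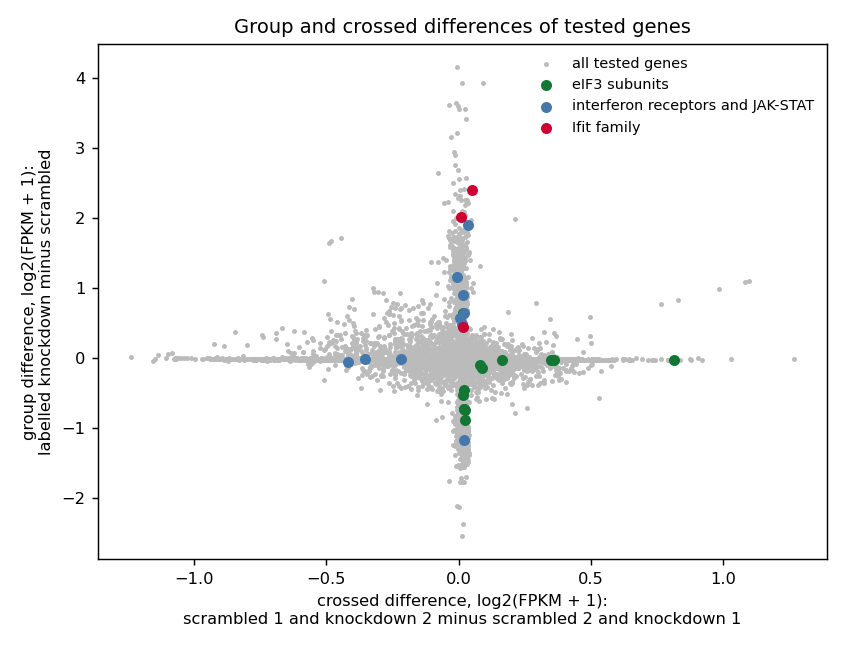
Each point is a tested gene; the horizontal axis is its crossed difference and the vertical axis its group difference, both on log2(FPKM + 1). The 3 tested Ifit genes (red) lie on the vertical arm with group differences of 0.45 to 2.39, while 3 of 10 receptor and JAK-STAT genes (blue) and 3 of 13 eIF3 subunits (green) have crossed differences over 0.2.

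Ifit1, the target named by the labels, was higher, not lower, under the knockdown label. It was measured at 1.93 and 1.91 FPKM under the scrambled label and at 13.9 and 14.8 FPKM under the knockdown label, and the groups did not overlap. Over the whole table, a gene with both knockdown values above both scrambled values was found in 28.1% of cases. In rank, Ifit1 stood at the 59th and 58.6th percentile of the genes of its library under the scrambled label and at the 81.5th and 82.3rd under the knockdown label. The mean FPKM went from 1.92 ± 0.0149 to 14.3 ± 0.689 (SD, n = 2 each), 7.47-fold. The log2 difference was 2.39 (SE 0.04, limma adjusted p = 1.6e-04), the 22nd largest increase of all tested genes. From fragments, 361 under the scrambled label and 2858 under the knockdown label, the ratio after scaling to depth was 7.46 with an exact 95% interval of 6.69 to 8.35, which covers counting error only. The direction is opposite to the name of the treatment, so every direction given here is that between the labels as deposited. The table holds 1 value a gene, and a part of the transcript that a hairpin would cut cannot be told from the rest.

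Ifit3 rose by a larger fold than Ifit1 in FPKM without a pseudocount, though by fewer units of FPKM. It had 0.302 and 0.306 FPKM under the scrambled label and 4.22 and 4.30 under the knockdown label, 14.0-fold. The groups did not overlap, as for 28.1% of all genes in this direction. Ifit1 and Ifit3 were 2 of the 4.71% of tested genes that were higher with a log2 difference of at least 1. The fragments were 26 and 32 against 446 and 417, a ratio of 14.0 (exact 95% interval 10.7 to 18.6). The log2 difference was 2.01 (SE 0.02, limma adjusted p = 1.6e-04), smaller than that of Ifit1 because the pseudocount of 1 weighs more at 0.3 FPKM. Ifit3 passed the filter only through the libraries labelled knockdown, since its mean under the scrambled label was 0.304 FPKM. With a pseudocount of 0.1 the order turned, with 3.43 for Ifit3 and 2.84 for Ifit1.

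Ifit2, the member with the highest level in the control libraries, rose least among the tested ones. It had 2.32 FPKM in both libraries under the scrambled label and 3.48 and 3.57 under the knockdown label, a 1.52-fold difference. The log2 difference was 0.45 (SE 0.02, limma adjusted p = 2.8e-04), the 1570th largest increase. Its 721 and 1161 fragments gave a ratio of 1.52 with an exact 95% interval of 1.38 to 1.67, which does not meet those of Ifit1 and Ifit3. The counting error of the log2 difference was 0.05 for Ifit2 and 0.06 for Ifit1 and Ifit3, above the SE of limma for each of the 3. With the SE not allowed below the counting error the limma adjusted p was 0.0056 for Ifit2 and 6.7e-04 for Ifit1 and Ifit3. Median-centring the libraries, which moved the median difference of all tested genes by 0.17, gave 0.62 for Ifit2, 2.57 for Ifit1 and 2.19 for Ifit3.

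**Figure D2:**
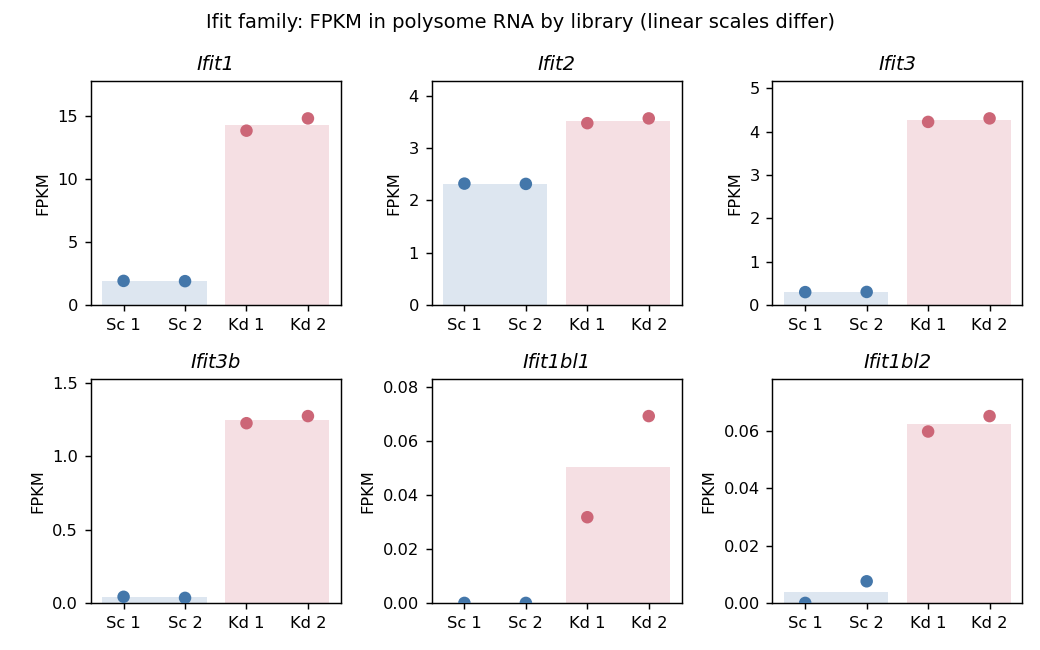
FPKM of each Ifit gene in the 4 libraries (points; Sc, labelled scrambled; Kd, labelled knockdown), with bars for the group means from 2 libraries on linear axes that start at 0 and differ between genes. Both knockdown points are above both scrambled points for each of the 6 genes, which holds for 28.1% of all 18200 genes. Values run from 1.91 to 14.8 FPKM for Ifit1 down to 0.0694 FPKM at most for Ifit1bl1. Ifit1bl1 and Ifit1bl2 rest on at most 1 fragment a library under the scrambled label and at most 8 under the knockdown label.

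The remaining 3 members were under the filter. Without the filter 21% of all 18200 genes were called higher, and of these 3 members Ifit3b and Ifit1bl2 were, but not Ifit1bl1 (limma adjusted p = 0.096). Ifit3b had 0.0417 and 0.0344 FPKM under the scrambled label and 1.23 and 1.28 under the knockdown label. These are 3 fragments in each scrambled library against 108 and 103, and the ratio of the group sums after scaling was 33.1 with an exact 95% interval of 15.0 to 91.4. Ifit1bl2 was at 0 and 0.00754 FPKM under the scrambled label and at 0.0598 and 0.0652 under the knockdown label. Its fragments were 0 and 1 against 8 and 8, a ratio of 15.1 with an exact 95% interval of 2.34 to 632. Ifit1bl1 was at 0 in both libraries under the scrambled label and at 0.0318 and 0.0694 FPKM under the knockdown label. Recovered fragments are the smallest whole numbers that give the FPKM, which for Ifit1bl1 were 1 and 2. They would mean a gene length of 797 bases, where its exons in GENCODE M21 cover 2260. Numbers of 3 and 6 fragments, for a length of 2390 bases, come closest to that annotation. For Ifit1, Ifit3b and Ifit1bl2 the smallest numbers implied lengths of 2638, 2232 and 3390 bases, near the annotated 2656, 2000 and 3367, and for Ifit2 4361 against 3927. Ifit3 stood apart, with 2678 bases implied and 1745 annotated.

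Reads of close copies can be counted for either gene, and the treatment of such reads is not stated in the labels. Of the stretches of 100 bases in the GENCODE M21 transcript of Ifit3, 31.7% occur in Ifit3b as well, and 27.4% of those of Ifit3b occur in Ifit3. Ifit1 shares 3.3% of its stretches with Ifit1bl2, Ifit1bl2 shares 2.9% with Ifit1 or Ifit1bl1, and Ifit1bl1 shares 0.5% with Ifit1bl2. Ifit2 shares none with any other transcript. The level of Ifit3b beside that of Ifit3 was not constant. Ifit3 was 7.22 and 8.89 times Ifit3b under the scrambled label, where Ifit3b rests on 3 fragments each, and 3.44 and 3.37 times under the knockdown label.

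The make-up of the family signal changed with its size. The summed FPKM of the 6 genes was 4.60 and 4.57 under the scrambled label and 22.9 and 24.1 under the knockdown label. Such a sum rests on the gene lengths behind the FPKM, and for Ifit3 2678 bases were implied against 1745 annotated. All genes summed to 598188 and 616504 FPKM under the scrambled label and 701936 and 680137 under the knockdown label. Ifit2 was the most abundant member under the scrambled label, with 50.5% and 50.6% of the sum, followed by Ifit1 with 42.0% and 41.8%. Under the knockdown label Ifit1 came first with 60.6% and 61.5%, then Ifit3 with 18.5% and 17.8%, and then Ifit2 with 15.2% and 14.8%. Ifit3b made up 5.36% and 5.29% there. In each group the order of the 4 largest members was the same in both libraries, and no neighbours in that order overlapped. The order of Ifit1bl1 and Ifit1bl2 was not the same in both knockdown libraries.

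**Figure D3:**
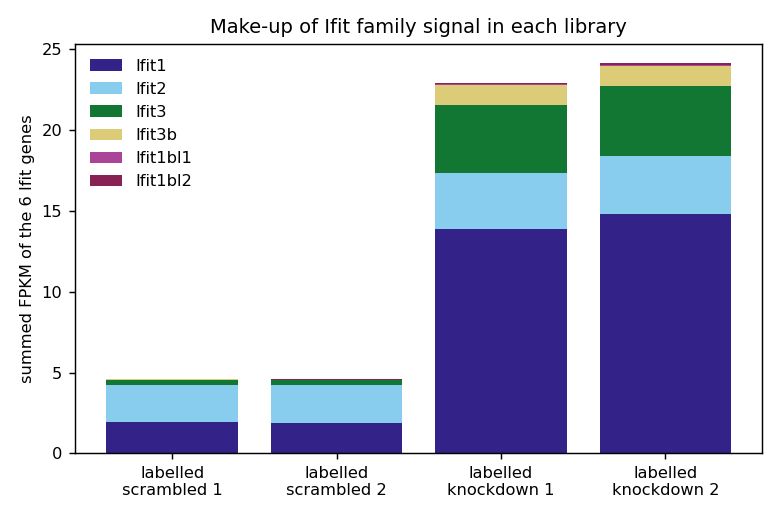
Stacked FPKM of the 6 Ifit genes in each library, 1 bar a library. The sum is 4.57 to 4.60 under the scrambled label and 22.9 to 24.1 under the knockdown label, where Ifit1 fills 60.6% and 61.5% of the bar.

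The genes beside the cluster were read in the same fit. The neighbours were the 5 protein-coding genes on each side in RefSeq, of which 4 were tested, 1 was higher, 2 were lower and 1 did not pass, shares near the 27.4% and 41.2% of all tested genes. Kif20b, a kinesin of cell division, rose from 1.86 and 1.84 to 2.54 and 2.59 FPKM. Rpp30, a subunit of ribonuclease P, fell by 0.34 on the log2 scale, and Stambpl1, a deubiquitinase, fell by 0.24. The fall of Stambpl1 did not pass after median-centring (log2 -0.07, adjusted p = 0.24) or quantile normalization (adjusted p = 0.22). Acta2, smooth muscle actin, was at 825, 719, 566 and 652 FPKM (limma adjusted p = 0.084; 0.039 after quantile normalization). Of those under the filter, Ch25h, an interferon-inducible cholesterol hydroxylase named with its values known, was counted with 0 and 1 fragments under the scrambled label and 32 and 10 under the knockdown label. Lipa, the nearest neighbour on the Ifit2 side, had 0.345, 0.499, 0.495 and 0.335 FPKM.

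**Figure D4:**
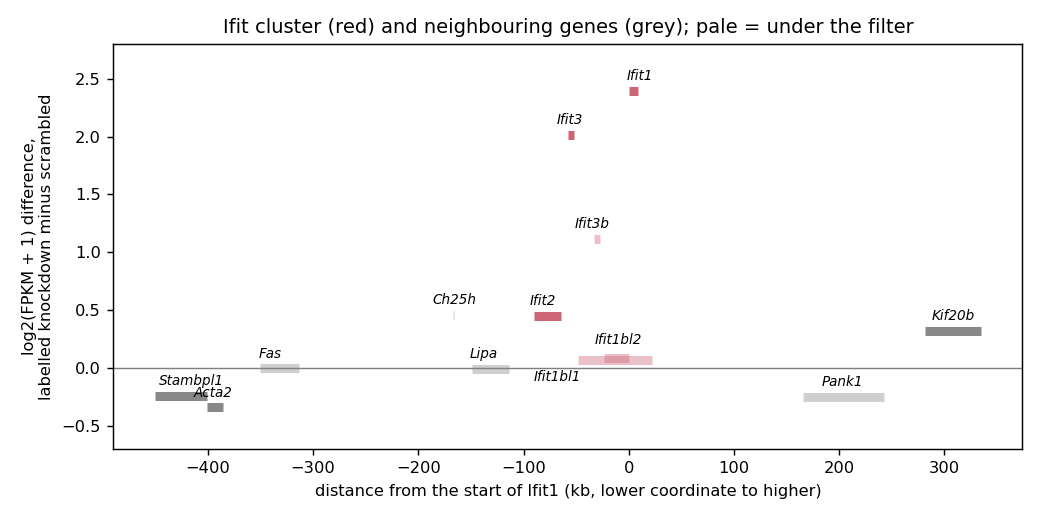
Log2(FPKM + 1) differences of the Ifit genes (red) and their analysed neighbours (grey) against the distance from the start of Ifit1 in kb; bar width is the extent of the gene, and pale bars are genes under the filter. Ifit1 and Ifit3 stand at 2.39 and 2.01, the tested neighbours between -0.34 and 0.32, and Rpp30 lies beyond the right edge.

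The genes of the pathway that induces Ifit genes followed by role. Of 20 interferon ligand genes 2 had an entry, Ifnb1 and Ifna4. Both were listed at 0 in 3 libraries and at 0.0332 and 0.113 FPKM in library 2 labelled knockdown. All 18200 entries were above 0 in some library, so a gene without an entry cannot be told from one at 0. Of 10 tested receptor and JAK-STAT genes of 12 listed, 6 were higher, 1 was lower and 3 did not pass, where 27.4% of all tested genes were higher and 41.2% lower. The median log2 difference was 0.53, and that of all tested genes was -0.02. Irf9, the DNA-binding part of the complex with Stat2, rose from 5.66 and 5.67 to 23.1 and 24.4 FPKM, and Stat2 rose 2.65-fold. Ifngr1, a chain of the receptor of interferon gamma, rose 1.77-fold. Jak1, a kinase on the receptors of all interferons, fell from 10.4 and 10.2 to 4.01 and 4.08 FPKM. Those that did not pass were the receptor chains Ifnar1, Ifnar2 and Il10rb, and each had a crossed difference over 0.2. Ifnar1 was at 1.65 and 2.63 FPKM under the scrambled label and at 2.40 and 1.61 under the knockdown label.

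Of 13 tested nucleic acid sensors and Irf factors, of 16 listed, 7 were higher, 5 lower and 1 did not pass (median 0.26). Of the higher ones Zbp1, Irf7, Dhx58 and Ikbke passed the filter only through the knockdown label, so this count is partly set by the filter. The share that was lower is near the 41.2% of all tested genes, and 27.4% of these were higher. Irf7, a transcription factor that is itself interferon-induced, rose from 0.723 and 0.740 to 19.1 and 19.4 FPKM, and Dhx58, which regulates RNA sensing, rose 7.77-fold. Tbk1, the kinase that activates Irf3, fell by 0.76 on the log2 scale, and Irf5 fell by 1.19. Among 8 tested negative regulators of 9 listed, 3 were higher, 4 lower and 1 did not pass (median -0.34), shares not far from the 27.4% and 41.2% of all tested genes. Usp18, which blocks the interferon receptor and removes Isg15 from proteins, rose from 14 and 17 to 740 and 673 fragments, and Socs1, an inhibitor of Jak kinases, rose 2.09-fold. The tyrosine phosphatases Ptpn11 and Ptpn2 fell by 0.97 and 0.46 on the log2 scale.

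Of 14 tested antiviral effectors that interferon induces, of 24 listed, 10 were higher, 71.4% where 27.4% of all tested genes were. Another 2 were lower and 2 did not pass, and the median over the 14 was 1.36. Of the higher ones Oas1a, Trim21, Oasl2, Parp9 and Rtp4 had scrambled means under 1 FPKM. They passed the filter only through the knockdown label, so the count, the share and the median are partly set by the filter. Bst2, which tethers viruses to the cell surface, rose 9.34-fold, and Isg15, a ubiquitin-like modifier, 12.0-fold. Rtp4 rose 8.63-fold and Oasl1, of the oligoadenylate synthetase family, 7.30-fold. Their log2 differences, 2.25 to 3.55, lay beside or above those of Ifit1 and Ifit3. The 2 lower ones were Samhd1, from 28.3 and 27.7 to 14.0 and 14.2 FPKM, and Zc3hav1, with a log2 difference of -0.53. Adar and Eif2ak2 did not pass, both with crossed differences over 0.2. Mx1 and Mx2 had no entry.

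The initiation factor eIF3 is bound by Ifit proteins, and Ifit1 binds caps without the ribose methylation that cap ribose methyltransferases make. Of 13 eIF3 subunits, all tested, 1 was higher, 6 were lower and 6 did not pass, with a median of -0.14 (-0.47 in batch 1 and -0.05 in batch 2). The share of lower subunits is near the 41.2% of all tested genes, so the falls are no result about eIF3 as a whole. Eif3c, the subunit that mouse Ifit1 and Ifit2 bind, fell from 149 and 146 to 79.2 and 80.3 FPKM, and Eif3b and Eif3h fell by 0.73 on the log2 scale each. Eif3k rose from 329 and 327 to 506 and 515 FPKM. Eif3a, Eif3d and Eif3e did not pass and had crossed differences over 0.2. Of 4 tested genes of cap synthesis and methylation, Ramac, the activator of the cap guanine methyltransferase Rnmt, rose 1.29-fold. Pcif1, which methylates the adenosine next to the cap, rose 1.13-fold, but did not pass without scrambled replicate 1 (adjusted p = 0.057) or scrambled replicate 2 (adjusted p = 0.059). Rnmt and Cmtr2, a cap ribose methyltransferase, did not pass. Actb fell by 0.63 on the log2 scale and Gapdh did not pass (adjusted p = 0.99). In polysome RNA without total RNA, the amount of a messenger RNA and its loading with ribosomes cannot be told apart, nor can fewer cells of a type and less RNA a cell.

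**Figure D5:**
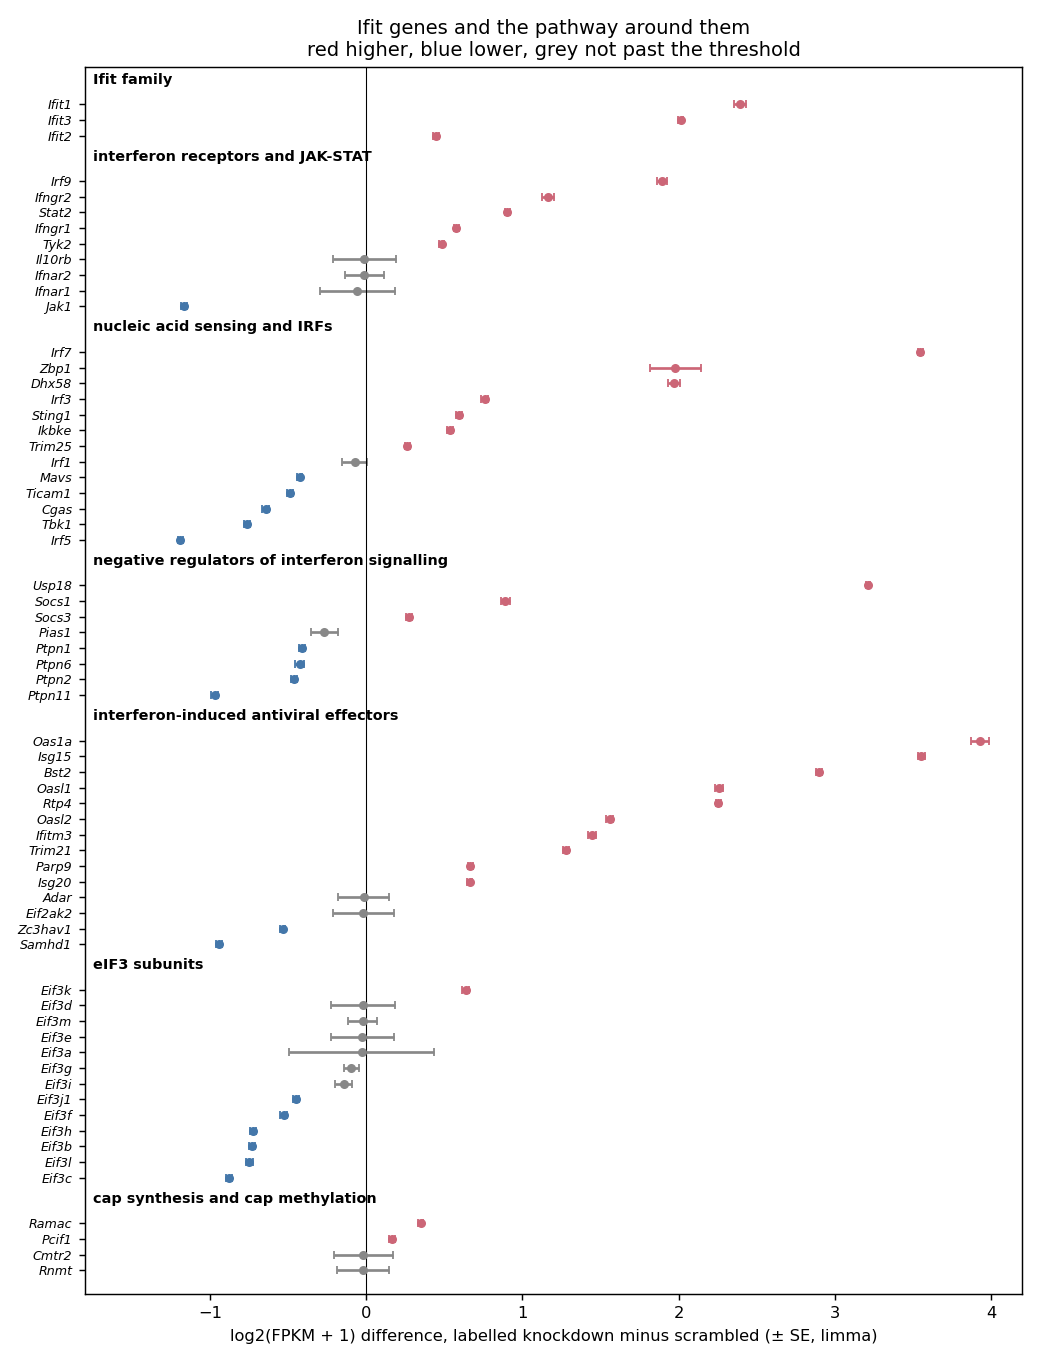
Log2(FPKM + 1) differences with the SE of limma for the tested genes of the Ifit family and of 6 lists around it, as far as they are reported (red higher, blue lower, grey not past the threshold). The Ifit genes lie at 0.45 to 2.39 beside Irf7 at 3.55 and Jak1 at -1.16, and the grey genes with the widest bars, such as Eif3a and Ifnar1, are those with crossed differences.

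Genes with the most similar pattern were found by the Euclidean distance between centred log2(FPKM + 1) values over the 4 libraries. Nearest to Ifit1 were Nnmt, nicotinamide N-methyltransferase (distance 0.05), the immunoproteasome subunit Psmb9 (0.05), Cenpv, Clec2d and Bmyc (0.10 each). Nnmt had 1.86 FPKM in both libraries under the scrambled label and 14.1 and 14.5 under the knockdown label, and Psmb9 had 0.388 and 0.399 against 6.29 and 6.41. Nearest to Ifit3 were Lbh, Mlf1 and Cnrip1, and nearest to Ifit2 were the deacylase Sirt5, the coatomer subunit Cope and Spring1. Many genes share such a pattern in 4 libraries of 2 groups, and the distance describes the values alone.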

How the data were processed

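RNA was harvested with Trizol, captured as mRNA on beads and fragmented, per the labels' protocols. FPKM were computed by the authors, per the labels. The submitters' processing notes name GRCm38, mm10 and GRCm39, without a role; the aligner, the counting tool and the strandedness, each not given in the sources used here, stay unknown. All 4 value columns were used and 0 left out. Coordinates and promoters are RefSeq's for GRCm38.p6, matched by symbol for 6 of 6 members.

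Whole fragments were solved from relative depths and ratios, accepting numbers up to 60000 within 1e-06 of a fragment plus 3e-08 of the number and the rounding of FPKM, which gave 8693 (99.3%) of the tested genes. The fit was limma 3.58.1 (R 4.3.3, lmFit and eBayes with trend, two-sided, 3.06 degrees of freedom a gene) over all 4 libraries without a batch term. Both steps were run on simulated data. For the fit these were independent libraries without crossed differences, so that run does not test the fit under the spread seen here. Fragment ratios have exact conditional binomial intervals at 95%. Tables and figures used Python 3.11.15, pandas 2.3.3, scipy 1.17.1 and matplotlib 3.10.9.

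Batch and replicate number coincide in the labels, which pairs the libraries by a shared batch as labelled. Across 8750 genes, differences between replicates 1 and 2 correlated between the groups with r = -0.83. The sign is negative, so the values do not follow the labelled pairing. The batch block and the medians given by batch rest on the labels alone. The chi-square of the fragments of replicates, a mean over genes, was 21.0 under the scrambled label and 22.7 under the knockdown label. Genes with crossed differences, such as Gapdh, enter this mean, so it does not speak for the Ifit genes. Ifit2 had 326 and 395 fragments in the scrambled libraries, at relative depths of 1.0 and 1.21. Whether the libraries are independent was not tested.

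The members and lists were chosen with earlier results of these data known. Named were the members, the 4 tested genes with the smallest p of each list, tested neighbours, the 5 genes most like Ifit1 and 3 each for Ifit2 and Ifit3, Actb and Gapdh. Other genes were named after their values were seen. A gene of the receptor and JAK-STAT list is counted in the list but not reported here. Of 152 genes on the lists 119 had an entry in the deposited table. Alternatives were the pseudocount, the filter, the scaling, a batch block, a counting-error floor and leaving out each library.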

Additional observations from a re-analysis of the deposited data

How the results depend on the processing

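Ifit1, Ifit2 and Ifit3 were higher and past the threshold under all 11 alternatives run for each. Their log2 differences ranged from 2.35 to 2.84, 0.43 to 0.62 and 1.93 to 3.43, and their adjusted p from 1.6e-04 to 0.0059, 2.7e-04 to 0.0076 and 1.6e-04 to 0.0059 (limma). With batch as a replicate block their adjusted p were 0.0053, 0.0069 and 0.0053, no member's call changed, and 2205 genes were higher and 3417 lower. Without the filter 5 Ifit genes were higher in place of 3. Ifit3b (adjusted p = 3.5e-04; 2.3e-04 with a mean FPKM of at least 0.1) and Ifit1bl2 (adjusted p = 0.0047) passed and Ifit1bl1 did not (adjusted p = 0.096), 17 antiviral effectors were higher in place of 10, and 3819 genes were higher of 18200 tested (21%) in place of 2401 of 8750, since more genes are tested. Median-centring left 1 neighbour lower in place of 2. Leaving out 1 library at a time gave 1 to 2 cap genes higher. The crossed pairing, added after the data were seen, gave 2962 higher and 4282 lower genes. Of 41 other named genes, 38 kept their call under every alternative. The 3 lowest members are limited by depth. In the median over tested genes the SE of limma (0.0208) was below the counting error (0.0382). Where this holds, as for the tested Ifit genes, the p-values rest on a spread smaller than counting alone gives. The cause of this small spread was not tested.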

Other observations

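Group differences and crossed differences were found in largely separate genes. Among the 5699 genes with only a group difference over 0.2, the median size was 0.597 for the group difference and 0.017 for the crossed difference. Among the 1502 with only a crossed difference over 0.2, the median size was 0.379 for the crossed difference and 0.021 for the group difference, and in 514 of them scrambled 1 and knockdown 2 were the higher libraries. The median size of the batch difference over all tested genes was 0.010. Eif3e, the eIF3 subunit that human IFIT1 binds and a gene with only a crossed difference, had 539 and 424 FPKM under the scrambled label and 416 and 532 under the knockdown label. Of the genes of the pathway lists that passed the threshold, Zbp1, a sensor of Z-form nucleic acid, had a crossed difference over 0.2 as well. The receptor chains Ifnar1, Ifnar2 and Il10rb and the antiviral genes Adar and Eif2ak2 had a crossed difference over 0.2 without passing. The cause was not tested.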
